A study of Mus musculus with 31 samples.

Results

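Rab GTPases are small proteins that mark the membranes of the cell. Bound to GTP, a Rab recruits effectors (tethers, motors, sorting adaptors) to its own compartment, and a cycle of exchange factors, GTPase-activating proteins and the carrier GDI moves it on and off the membrane. In the brain the Rab3 proteins sit on synaptic vesicles and secretory granules, whereas Rab1, Rab5, Rab7 and Rab11 serve transport steps found in nearly every cell. The genes described here are the 48 genes, of 15096 named on the array, whose only symbol in the platform annotation has the form Rab followed by a number and at most a letter and a further digit. Each had 1 probe, so no Rab gene could be checked against a further probe.

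The study set whole-brain RNA of 31 BXD/TyJ strains, recombinant inbred mice derived from C57BL/6J and DBA/2J, against whole-brain RNA of C57BL/6J, 1 strain to each 2-colour glass array. A strain sample was a pool of RNA from 3 males aged 8 weeks, labelled with Alexa Fluor 647. The C57BL/6J sample was pooled RNA of males of the same age, with a spike-in mix added, labelled with Alexa Fluor 555. No array had the dyes swapped, so a difference between strain and C57BL/6J cannot be told apart from a difference between dyes. A value is a log ratio, taken as log2 of strain over C57BL/6J. The direction is likely, from the order of channels and the titles, but it was not stated. With pooled animals and 1 array per strain, strain, pool and array cannot be told apart, and p-values measure the spread between arrays. Whole brain holds many cell types, so fewer cells of a type and less RNA per cell cannot be told apart. Array intensities were not analysed here, so neither the level of a Rab gene nor the presence of brain markers could be checked.

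Groups of arrays stood apart. The first principal component held 28.7% of the variance between arrays and set off 7 arrays (BXD38, BXD36, BXD28, BXD23, BXD20, BXD8 and BXD6). The second held 11.9% and set off 8 arrays (BXD42, BXD40, BXD39, BXD34, BXD33, BXD27, BXD22 and BXD15). The other 16 arrays are called the core arrays. The labels name no batch that matches these groups, so they are given as groups of arrays found in the values. The components were computed from all features, Rab genes and markers among them. Values that part the sets, here and below, therefore partly restate how the sets were drawn. The share of all features with no overlap between sets was not counted. Neuronal markers (11 of 12 listed genes measured) averaged −0.08 on the first-component arrays, 0.12 on the second-component arrays and 0.10 on the core arrays. On the first-component arrays their mean lay between −0.19 and −0.02, below its range on the core arrays, 0.03 to 0.31. Oligodendrocyte markers averaged 0.44, 0.32 and 0.26 on the same 3 sets, and pituitary markers 0.42, 0.10 and 0.14. The first pituitary value rests on BXD6, at 2.04, and is 0.15 without it (a value added after seeing the data). Astrocyte markers averaged −0.20, 0.04 and −0.16, microglial markers −0.31, −0.21 and −0.34, and blood markers −0.24, −0.16 and −0.05. Endothelial markers averaged 0.05, 0.37 and 0.23, and their values on the first-component arrays (−0.01 to 0.18) do not overlap those on the second-component arrays (0.20 to 0.50). Members of a list did not always share a sign. Over all arrays, 4 neuronal markers passed the test described below with a positive mean and 3 with a negative one. These counts were 2 and 3 for astrocyte and for microglial markers, and 4 and 1 for endothelial markers. They were 5 and 0 for oligodendrocyte, 2 and 0 for pituitary, and 0 and 2 for blood markers. A list average therefore need not describe each of its genes. The part of these markers in the Rab values was not tested. Log ratios also depended on where a probe was printed. Named probes other than Gapdh at the eighth place of each run of 8 spots averaged −0.54, against −0.01 to 0.08 at the other places, and 11 Rab probes lie there.

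The first question was whether the Rab genes differed, on average over strains, from C57BL/6J. Of the 48 genes, 20 had a positive mean, 20 a negative mean and 8 did not pass the test (limma moderated test of the mean against 0, adjusted p under 0.05 over 21262 features). Of all features 76.1% passed, 42.1% above 0 and 33.9% below it, so the 40 Rab genes that passed (83.3%) are near the background of these arrays. The highest means belonged to Rab3b, Rab30, Rab31 and Rab10, and the lowest to Rab9, Rab17, Rab32 and Rab11a. All 4 of the lowest are at the eighth place. Of the 11 Rab genes there, 10 had a negative mean and none a positive one, where 79.7% of named genes printed only there were negative and 7.05% positive. Of the 37 at other places, 20 were positive, 10 negative and 7 did not pass, against 46.7% positive and 27.5% negative, 74.2% in all, for named genes at those places. The median of the Rab means was −0.76 at the eighth place and 0.10 at other places, against −0.48 and 0.07 for named genes. In size, without sign, the Rab means had a median of 0.28, against 0.22 for named genes. Among the 1048 genes with several probes, the means of the first 2 probes differed by a median of 0.34. A Rab mean of that size on 1 probe may therefore belong to the probe rather than the gene. Those first 2 probes were not matched for place, so the 0.34 can include differences between places. Repeated Gapdh spots give a scale for single spots: 231 of them at the eighth place had means from −1.43 to 1.09, averaging −0.22 ± 0.39 (SD over spots). All 11 Rab genes at that place have means inside that range, and the lowest, Rab9, is at −1.19. Most named probes there would lie inside it too, as their 5th to 95th percentile ran from −1.44 to 0.15. All 48 Rab means lie inside it as well, so the range does not set the Rab genes apart.

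**Figure D1:**
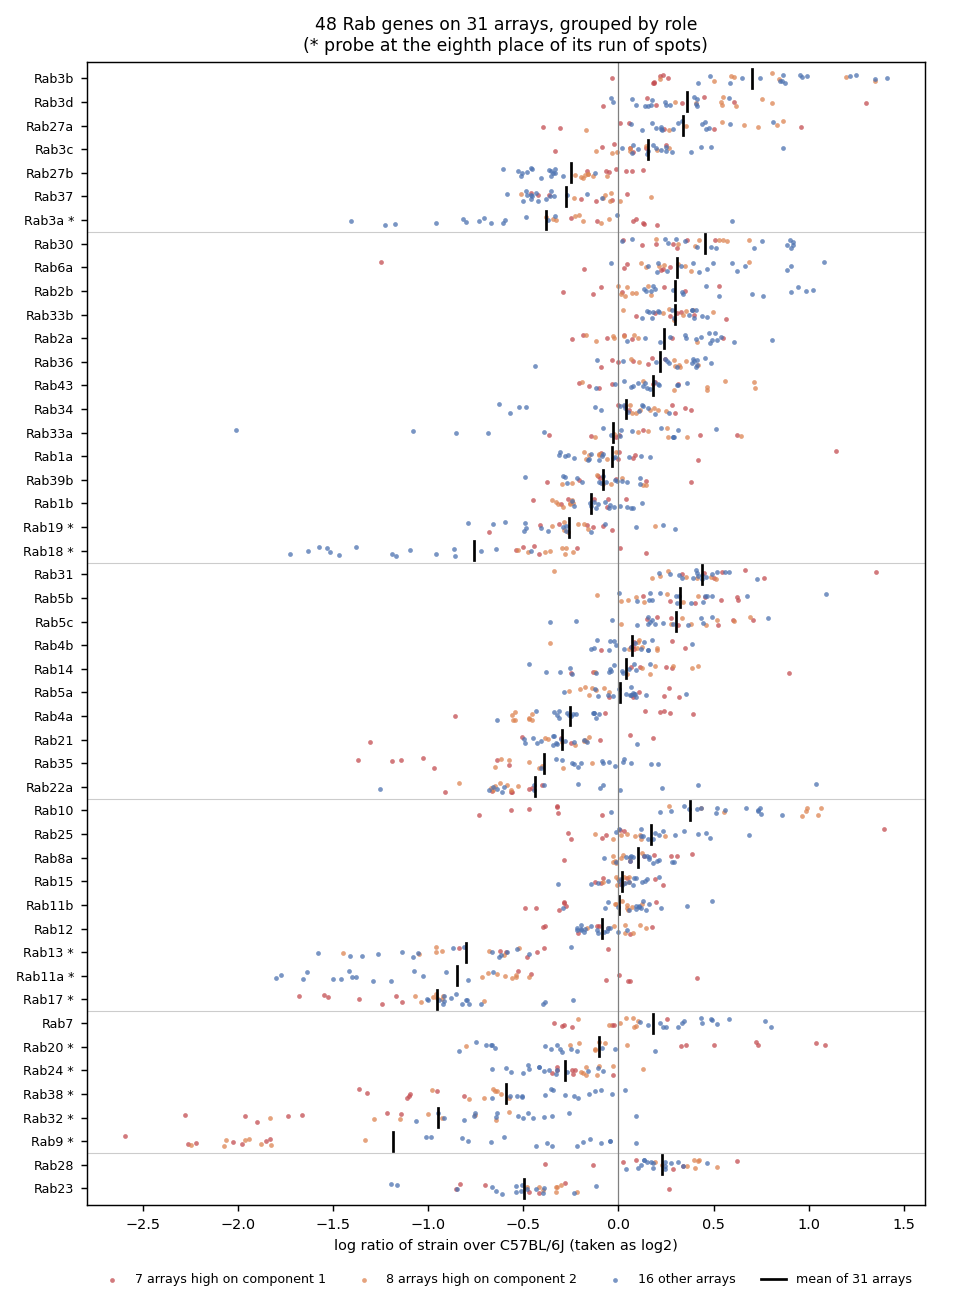
Log ratio of strain over C57BL/6J (taken as log2, horizontal axis) of 48 Rab genes on 31 arrays, each point 1 strain, grouped by role with exocytosis at the top and cilium at the bottom; colours mark the 3 sets of arrays, black bars the mean of 31 arrays, and a star a probe at the eighth place. Rab9, Rab32 and Rab33a reach furthest below 0 on single arrays, and Rab3b has the highest mean, 0.70.

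**Figure D2:**
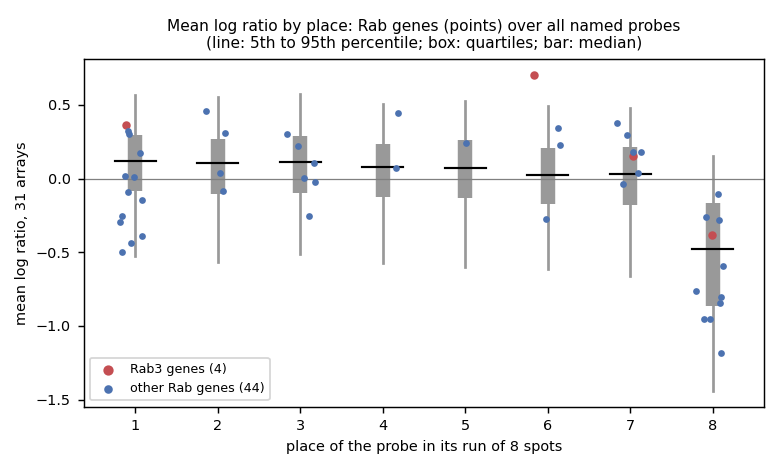
Mean log ratio over 31 arrays (taken as log2, vertical axis) by place in the run of 8 spots (horizontal axis), for Rab genes as points and for named probes as the median, quartiles and 5th to 95th percentile. The 11 Rab genes at the eighth place lie between −1.19 and −0.10, and the 37 at other places between −0.50 and 0.70.

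Fewer Rab genes passed stricter tests. With array group as a random block (consensus correlation 0.41) 22 Rab genes passed, 8 positive and 14 negative, where 39.7% of features did (19.6% positive, 20.1% negative). Among those 14 only Rab1b, Rab22a, Rab23, Rab27b, Rab35 and Rab37 are printed elsewhere than at the eighth place. The block test applied the same correlation to every gene, in sets drawn from these same values. Some genes had most of their variance between sets, such as Rab9 (87.4%), Rab11a (76.9%) and Rab35 (76.3%). For such genes that correlation may be too low, and p-values with the array block, here and below, may be too small. Against a change of 1.2-fold, 12 passed, 3 positive (Rab3b, Rab30 and Rab31) and 9 negative, where 27.9% of features did (12.4% positive, 15.6% negative). Of those 9 only Rab22a and Rab23 are printed elsewhere than at the eighth place. The feature shares in these 2 tests were not split by place, so the negative counts cannot be set apart from the place. On the core arrays alone 40 passed, 20 in each direction, where 76.1% of features did (40.9% positive, 35.2% negative). Rab30 and Rab33b were above 0 on all 31 arrays, and Rab13 and Rab17 below 0 on all of them. Among named genes 9.96% kept 1 sign on every array.

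The Rab genes of regulated exocytosis are those that bring vesicles and granules to the plasma membrane for release. Of the 7, 4 had a positive mean (Rab3b, Rab3c, Rab3d and Rab27a) and 3 a negative one (Rab3a, Rab27b and Rab37). The background for this and the later counts by role is all features, 42.1% positive and 33.9% negative. Rab3a, the main Rab3 of synaptic vesicles, binds RIM and rabphilin. Rab3b and Rab3c are its close relatives at synapses, and Rab3d is best known from the granules of exocrine and mast cells. The RefSeq promoters of the 4 genes are shown because they are the subfamily on which the comparison with the ubiquitous Rab genes turns. Each run is the 250 bases before the start site on GRCm38.p6, 5′ to 3′ on the gene's strand. They lie at chr8:70754453-70754702 on the plus strand (Rab3a, whose first of 2 listed starts was taken), chr4:108878820-108879069 on the plus strand (Rab3b), chr13:110280207-110280456 on the minus strand (Rab3c) and chr9:21918184-21918433 on the minus strand (Rab3d). Capitals mark the cAMP-response half-site TGACG and the GC box GGGCGG, searched on both strands.
Rab3a promoter: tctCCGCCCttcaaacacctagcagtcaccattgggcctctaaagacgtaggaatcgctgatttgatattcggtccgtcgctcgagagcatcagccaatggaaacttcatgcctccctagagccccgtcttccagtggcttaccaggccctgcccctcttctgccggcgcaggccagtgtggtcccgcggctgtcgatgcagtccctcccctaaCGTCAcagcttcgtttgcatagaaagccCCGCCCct
Rab3b promoter: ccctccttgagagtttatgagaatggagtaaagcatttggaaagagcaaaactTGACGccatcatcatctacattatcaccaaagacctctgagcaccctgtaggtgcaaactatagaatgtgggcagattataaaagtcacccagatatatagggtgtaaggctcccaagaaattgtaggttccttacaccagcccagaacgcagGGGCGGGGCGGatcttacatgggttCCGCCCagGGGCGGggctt
Rab3c promoter: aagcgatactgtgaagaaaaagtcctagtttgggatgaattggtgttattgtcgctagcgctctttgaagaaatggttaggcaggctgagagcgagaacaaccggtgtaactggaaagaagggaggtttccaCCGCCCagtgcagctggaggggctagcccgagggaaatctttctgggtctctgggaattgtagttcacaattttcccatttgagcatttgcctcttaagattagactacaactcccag
Rab3d promoter: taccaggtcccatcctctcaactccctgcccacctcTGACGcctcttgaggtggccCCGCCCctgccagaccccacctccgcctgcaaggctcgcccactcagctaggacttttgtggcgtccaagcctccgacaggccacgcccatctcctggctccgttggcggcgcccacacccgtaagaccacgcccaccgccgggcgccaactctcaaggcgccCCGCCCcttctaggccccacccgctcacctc

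Rab3a held 1 TGACG and 2 GGGCGG, Rab3b 1 and 4 (2 of them overlapping), Rab3c 0 and 1, and Rab3d 1 and 2. Over the 52 starts listed for the 40 Rab genes that matched the promoter table, 40.4% held TGACG and 63.5% GGGCGG, against 17.8% and 32.7% of all 32851 promoters of that length. The promoters were not matched for base composition or type of gene, and each start of a gene was counted. The higher shares are therefore not shown to be particular to Rab genes. A match describes these letters only.

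Rab3b had the highest mean of the 48. Its log ratio ranged from −0.03 in BXD36 through a median of 0.74 to 1.41 in BXD14, and was above 0 on 30 of 31 arrays. The mean was 0.70 ± 0.07 (SE over 31 arrays; limma adjusted p = 1.03e-10, and 0.0014 with the array block). The value followed the sets of arrays, with 0.18 on the first-component arrays, 0.76 on the second-component arrays and 0.90 on the core arrays, and 53.1% of its variance lay between them. A share over 50% was found in 28.2% of named genes. The first-component values ran from −0.03 to 0.26 and the core values from 0.42 to 1.41, in sets drawn from these same data.

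Rab3d ranged from −0.08 in BXD28 through a median of 0.33 to 1.30 in BXD8, and was above 0 on 28 arrays. Its mean was 0.36 ± 0.05 (SE over 31 arrays; adjusted p = 1.29e-07, and 0.0131 with the array block). BXD8 stood 0.50 above the next array, BXD27. The sets of arrays overlapped, with means of 0.42, 0.57 and 0.23 in the order first-component, second-component, core.

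Rab3c differed less from C57BL/6J, with a lowest value of −0.33 in BXD28, a median of 0.15 and a highest value of 0.87 in BXD18. Its mean was 0.15 ± 0.04 (SE over 31 arrays; adjusted p = 6.01e-04), and this did not pass with the array block (0.3345). All 16 core arrays were above 0, from 0.02 to 0.87, whereas the other 15 lay on either side of 0.

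Rab3a went the other way, from −1.40 in BXD31 through a median of −0.33 to 0.60 in BXD5, with 25 arrays below 0. Its mean was −0.38 ± 0.08 (SE over 31 arrays; adjusted p = 6.27e-05), and this did not pass with the array block (0.2076). The core arrays averaged −0.64 with values from −1.40 to 0.60, the second-component arrays −0.23, and the first-component arrays 0.04. Rab3a is the only Rab3 probe at the eighth place. The order of the 4 means was Rab3b, Rab3d, Rab3c and Rab3a. Rab3b and Rab3d, neighbours in that order, have ranges over arrays that overlap widely.

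**Figure D3:**
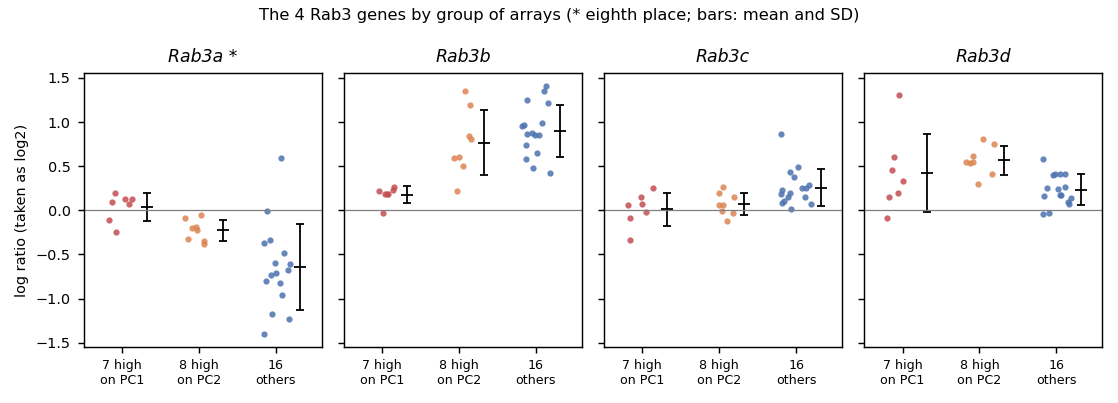
Log ratio of strain over C57BL/6J (taken as log2, vertical axis) of the 4 Rab3 genes in the 3 sets of arrays (horizontal axis), each point 1 strain and each bar the mean and SD. Rab3b and Rab3c are lowest on the first-component arrays, and Rab3a is lowest on the core arrays.

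The remaining exocytic genes were Rab27a, Rab27b and Rab37. Rab27a docks melanosomes and cytotoxic granules and averaged 0.34 ± 0.06 (SE over 31 arrays; adjusted p = 2.93e-06), which did not pass with the array block (0.0789). Its values ran from −0.40 in BXD6 through 0.31 to 0.96 in BXD36, both first-component arrays. Rab27b, its relative in secretory cells and neurons, averaged −0.25 (limma adjusted p = 1.64e-07, and 0.0159 with the block). It ran from −0.61 in BXD32 through −0.23 to 0.13 in BXD23, and 75.7% of its variance lay between the sets of arrays. Rab37, found on secretory granules, averaged −0.28 (limma adjusted p = 5.50e-08, and 0.0279 with the block).

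Among the 14 genes of the endoplasmic reticulum and Golgi, 7 had a positive mean, 4 a negative one and 3 did not pass. Rab30, a Golgi Rab, was above 0 on every array, from 0.02 in BXD29 through 0.42 to 0.92 in BXD18. Its mean was 0.46 ± 0.05 (SE over 31 arrays; adjusted p = 3.93e-10, and 0.0086 with the array block). Rab33b, which acts at the Golgi and binds the autophagy protein Atg16l1, was also above 0 everywhere, from 0.02 to 0.56. Its SD of 0.13 was among the 4 narrowest of the 48, and its means on the 3 sets of arrays were 0.31, 0.30 and 0.29. Rab33a, its close relative, had the opposite kind of spread: it ran from −2.01 in BXD24 through 0.07 to 0.64, with an SD of 0.54, and did not pass. BXD24 lay 0.93 below the next array, BXD16.

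Rab6a, which directs transport back through the Golgi, averaged 0.31 ± 0.07 (SE over 31 arrays; adjusted p = 2.20e-04), and this did not pass with the array block (0.2648). It ran from −1.25 in BXD23 through 0.27 to 1.08 in BXD1, and BXD23 lay 1.07 below the next array, BXD8. The Rab2 genes, which act between the endoplasmic reticulum and Golgi, had means of 0.24 (Rab2a) and 0.30 (Rab2b). Both passed the limma test, with adjusted p = 5.21e-05 for Rab2a and 4.32e-05 for Rab2b, and neither passed with the array block (0.1860 and 0.1899). Both were above 0 on all 16 core arrays and on either side of 0 on the others.

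Rab1a and Rab1b, which take vesicles from the endoplasmic reticulum to the Golgi, had calls that depended on the arrays used. Rab1a had a mean of −0.03 over 31 arrays and did not pass, with a lowest value of −0.31, a median of −0.09 and a highest value of 1.15 in BXD36, where the next array, BXD6, had 0.42. Rab1b averaged −0.14 (limma adjusted p = 3.47e-05, and 0.0396 with the array block) and an SD of 0.15. On the core arrays alone Rab1a passed, with a mean of −0.11 (limma adjusted p = 0.0126), and Rab1b did not, with −0.06 (0.0796). Rab1a also passed without the first-component arrays (6.63e-04) and in the robust fit (0.0052). Rab18, of lipid droplets and the endoplasmic reticulum, averaged −0.76 ± 0.09 (SE over 31 arrays; adjusted p = 5.22e-09), from −1.73 in BXD12 through −0.54 to 0.14 in BXD28. It is at the eighth place, and its mean was −1.17 on the core arrays against −0.28 and −0.35 on the first- and second-component arrays. Of the others, Rab36 (0.22) and Rab43 (0.18) were positive, Rab19 (−0.26, at the eighth place) and Rab39b (−0.08) were negative, and Rab34 (0.04) did not pass. None of these 4 calls passed with the array block (adjusted p from 0.1051 for Rab36 to 0.5636 for Rab39b).

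Of the 10 early endosome genes, 4 had a positive mean, 4 a negative one and 2 did not pass, and none is at the eighth place. The Rab5 genes, which drive fusion of early endosomes through EEA1, were not alike. Rab5b averaged 0.32 ± 0.04 (SE over 31 arrays; adjusted p = 7.00e-08, and 0.0280 with the array block) and ran from −0.11 in BXD22 through 0.31 to 1.09 in BXD11. Rab5c averaged 0.30 (limma adjusted p = 5.26e-07, and 0.0298 with the block). Rab5a had a mean of 0.01 with values from −0.29 to 0.36, and did not pass. Rab31, which works between the trans-Golgi network and endosomes, ran from −0.34 in BXD22 through 0.44 to 1.35 in BXD36. Its mean was 0.44 ± 0.05 (SE over 31 arrays; adjusted p = 3.21e-10, and 0.0025 with the block), with 30 arrays above 0. Rab22a, its relative, was negative, with a mean of −0.44 (limma adjusted p = 2.84e-06, and 0.0436 with the block), a median of −0.56 and a single array, BXD29, at 1.04.

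Rab35, which returns cargo to the plasma membrane, averaged −0.39 ± 0.07 (SE over 31 arrays; adjusted p = 9.16e-06, and 0.0016 with the array block). Its values ran from −1.37 in BXD23 through −0.30 to 0.21 in BXD32, and 76.3% of its variance lay between the sets of arrays, with means of −0.99, −0.45 and −0.10. Every first-component value, −1.37 to −0.58, was below every core value, −0.41 to 0.21. Rab21, a regulator of integrin traffic, had a mean of −0.30 and a lowest value of −1.31 in BXD23, where the next array, BXD28, had −0.50. It did not pass with the array block (limma adjusted p = 0.0619). The fast-recycling pair split in sign, with −0.26 for Rab4a and 0.07 for Rab4b. Neither passed with the array block (limma adjusted p = 0.0936 for Rab4a and 0.4535 for Rab4b). Rab14, between Golgi and endosomes, had a mean of 0.04 and did not pass.

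Of the 9 genes of recycling and polarised transport, 3 had a positive mean, 4 a negative one and 2 did not pass, and 3 of the 4 negative genes are at the eighth place. Rab10, which carries vesicles to the plasma membrane and is known in adipocytes for delivering the glucose transporter Glut4, ran from −0.73 in BXD38 through 0.43 to 1.06 in BXD42. Its mean was 0.37 ± 0.09 (SE over 31 arrays; adjusted p = 2.67e-04), and this did not pass with the array block (0.1045). All 7 first-component arrays were below 0 and all 8 second-component arrays above it, with means of −0.40 and 0.79 beside 0.51 on the core arrays. Rab11a, the recycling endosome Rab, ran from −1.80 in BXD31 through −0.72 to 0.41 in BXD28. Its mean was −0.85 ± 0.10 (SE over 31 arrays; adjusted p = 5.42e-09, and 0.0018 with the block). It was lowest on the core arrays (−1.31, from −1.80 to −0.66), intermediate on the second-component arrays (−0.59) and near 0 on the first-component arrays (−0.08). Rab11b, its near relative printed elsewhere in the run, had a mean of 0.00 and did not pass, and its order of means, −0.27, 0.04 and 0.10, ran the other way.

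Rab17, known from epithelial sorting and from dendrites, was below 0 on every array, from −1.68 in BXD36 through −0.93 to −0.24 in BXD32. Its mean was −0.96 ± 0.06 (SE over 31 arrays; adjusted p = 1.52e-16, and 1.33e-08 with the array block). Rab13, of cell junctions, was also below 0 throughout, with a mean of −0.80 (limma adjusted p = 5.74e-13) and values from −1.58 to −0.06. Rab25, the epithelial relative of Rab11, had a mean of 0.17 and a highest value of 1.40 in BXD36, where the next array, BXD18, had 0.69. It did not pass with the array block (limma adjusted p = 0.4598). Rab8a (0.10, SD 0.14) and Rab12 (−0.09, SD 0.14) passed with small means, and neither passed with the array block (limma adjusted p = 0.2783 for Rab8a and 0.3719 for Rab12). Rab15 had the narrowest spread of the 48, an SD of 0.11 around a mean of 0.02, and did not pass.

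Of the 6 genes of late endosomes, lysosomes and related organelles, 5 are at the eighth place. Among these 6 genes 1 had a positive mean, 4 a negative one and 1 did not pass. Rab9, which returns mannose 6-phosphate receptors from late endosomes to the Golgi, had the lowest mean and the widest spread of the 48. It ran from −2.60 in BXD8 through −1.01 to 0.09 in BXD12, with 30 arrays below 0 and a mean of −1.19 ± 0.15 (SE over 31 arrays; adjusted p = 1.13e-08). Its SD of 0.87 was at percentile 99.7 of all named genes, and 87.4% of its variance lay between the sets of arrays. All first- and second-component values were at or below −1.33, and all core values at or above −1.01. Rab32 and Rab38, which together build melanosomes, had means of −0.95 (limma adjusted p = 1.52e-10) and −0.59 (9.41e-10). Both were lowest on the first-component arrays, with −1.70 for Rab32 and −1.11 for Rab38, against −0.59 and −0.31 on the core arrays. Rab24, linked to autophagy, averaged −0.28 (limma adjusted p = 7.76e-09).

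Rab20, of phagosomes and the last of these at the eighth place, ran from −0.84 in BXD11 through −0.21 to 1.09 in BXD6. It averaged 0.68 on the first-component arrays, all 7 above 0, and −0.21 and −0.39 on the others, and its overall mean of −0.10 did not pass. Rab7, which takes late endosomes to lysosomes and is the only late endosome gene printed elsewhere, averaged 0.18 ± 0.05 (SE over 31 arrays; adjusted p = 0.0025), and this did not pass with the array block (0.4290). All 16 core arrays were above 0, from 0.12 to 0.80, and the first-component arrays averaged −0.14. The cilium pair had opposite signs. Rab23, which in mouse restrains Hedgehog signalling, averaged −0.50 ± 0.05 (SE over 31 arrays; adjusted p = 2.06e-10, and 0.0074 with the block). Rab28, known from photoreceptor outer segments, averaged 0.23 (limma adjusted p = 9.77e-07, and 0.0462 with the block).

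The spread over strains was close to that of other genes. The median SD of the 48 was 0.27, as it was for all named genes, and 24 of the 48 lay above that median. The widest were Rab9, Rab11a, Rab32, Rab33a, Rab18 and Rab20, 5 of them at the eighth place. The median share of variance between the 3 sets of arrays was 30.04% for Rab genes and 33.9% for named genes. In 12 Rab genes it was over 50%, as in 28.2% of named genes. The mean had the same sign in all 3 sets for 35 of 48, a larger share than the 57.9% of named genes. That background was not split by place, and the difference was not tested.

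**Figure D4:**
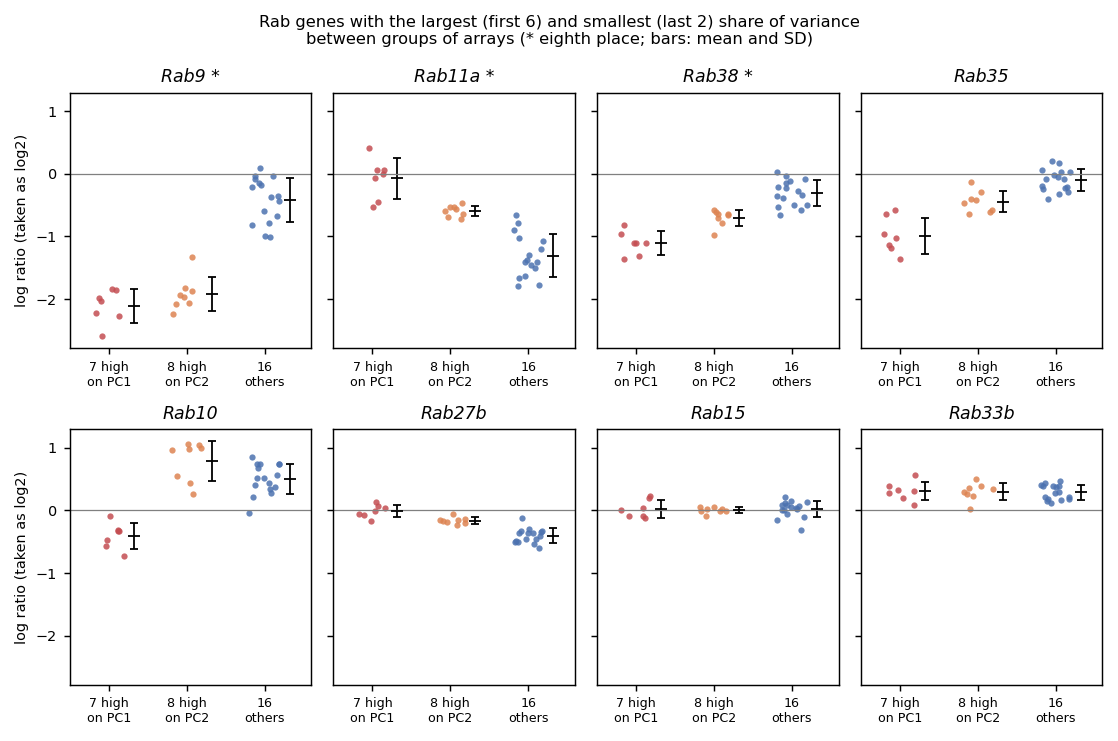
Log ratio of strain over C57BL/6J (taken as log2, vertical axis) by set of arrays (horizontal axis) for the 6 Rab genes with the largest and the 2 with the smallest share of variance between sets, each point 1 strain and each bar the mean and SD. Rab9, Rab38, Rab35 and Rab10 are lowest on the first-component arrays, and Rab11a and Rab27b on the core arrays, while Rab15 and Rab33b stay level.

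The next question was whether Rab genes moved together over strains. Over all 31 arrays the mean Pearson correlation of the 1128 pairs was 0.000231, against 0.000942 for all pairs of named genes, and 556 pairs were above 0. On the core arrays the mean was 0.00519, against 0.00252. Because the arrays fall into sets, single pairs were read within each set. On the core arrays 9.66% of Rab pairs had a correlation of 0.5 or more in size, against 10.8% of named pairs. The shares were 26% against 22.6% on the 8 second-component arrays and 26.9% against 26.8% on the 7 first-component arrays, where few points make large values common. Permutation tests over arrays (two-sided) passed 0 of 1128 pairs after Benjamini-Hochberg adjustment in any set, by Pearson or Spearman. On the core arrays 110 pairs had an unadjusted Pearson p under 0.05 (102 by Spearman) and the lowest adjusted p was 0.217. The lowest adjusted Pearson p from these permutation tests was 0.0839 on the second-component arrays and 0.671 on the first-component arrays. The size of the first-component set limits this test: with 7 arrays the smallest exact p is 1.98e-04, and at least 5 pairs would have to reach it together for any to pass.

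Rab9 and Rab38, both at the eighth place, had a core r of 0.74 (rho 0.72; permutation p = 0.0012 and 0.0019; adjusted p = 0.217 and 0.406), and 0.78 without the 2 arrays farthest from the median. On the 7 first-component arrays the same pair had r = −0.82 (rho −0.86; exact permutation p = 0.0202 and 0.0238; adjusted p = 0.677 and 0.849), which was −0.44 without the 2 farthest arrays. On the 8 second-component arrays it had r = −0.66 (rho −0.10; exact permutation p = 0.114 and 0.840; adjusted p = 0.646 and 0.977). Without the 2 farthest arrays that r was 0.50, so its sign rests on them. Rab36 and Rab22a had the lowest core r, −0.75 (rho −0.53; permutation p = 0.0013 and 0.0351; adjusted p = 0.217 and 0.499). Without the 2 farthest arrays it was −0.26, so it rests on those arrays. Rab3a was nearest to Rab24, with a core r of 0.72 (rho 0.58; permutation p = 0.0015 and 0.0194; adjusted p = 0.217 and 0.455), and 0.72 without the 2 farthest arrays. Both probes are at the eighth place. Rab3a and Rab10 had a core r of −0.74 (rho −0.56; permutation p = 0.0012 and 0.0270; adjusted p = 0.217 and 0.499). Rab3c was nearest to Rab25, with a core r of 0.74, which was 0.45 without the 2 farthest arrays (permutation p = 0.0014, adjusted p = 0.217). On the first- and second-component arrays r was −0.09 and 0.49 for Rab3a with Rab24, and −0.47 and 0.03 for Rab3a with Rab10. It was 0.39 and −0.56 for Rab3c with Rab25, and 0.01 and 0.31 for Rab36 with Rab22a. None of these pairs passed in any set.

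Kinship and position were set beside the correlations. The 17 pairs of the same subfamily had a mean core r of −0.04, from −0.40 (Rab3b with Rab3c) to 0.53 (Rab33a with Rab33b; permutation p = 0.0286, adjusted p = 0.426), against 0.01 for other pairs. Rab33a with Rab33b had r = −0.15 on the first-component arrays and −0.74 on the second-component arrays. The latter was 0.45 without the 2 farthest arrays. The 49 pairs on the same chromosome averaged −0.08, against 0.01 for pairs on different chromosomes. The 55 pairs with both probes at the eighth place averaged 0.182, against −0.00385 for all others. These averages are descriptions over pairs that share genes and arrays.

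**Figure D5:**
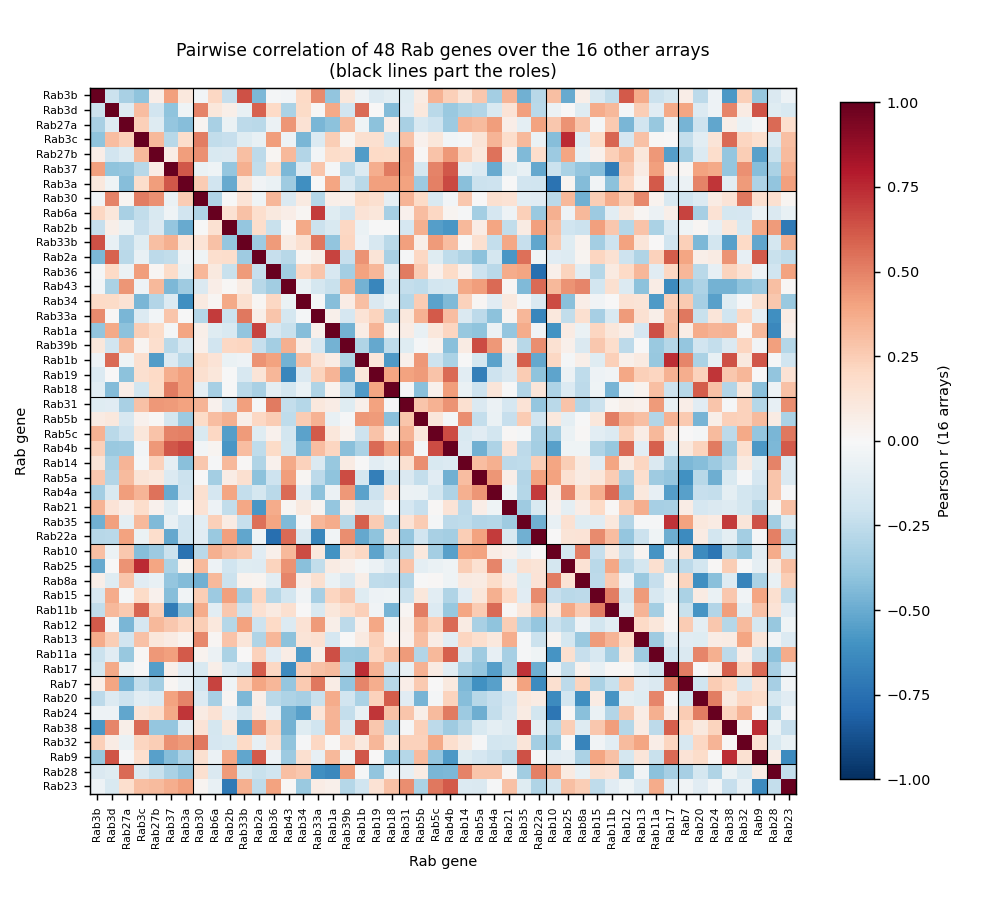
Pearson correlation over the 16 core arrays (colour, −1 to 1) between 48 Rab genes, in the same order by role on both axes. High and low values are scattered, with no clear block by role, and the mean over pairs is 0.00519.

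The 4 Rab3 genes were set beside 18 ubiquitous Rab genes (Rab1a, Rab1b, Rab2a, Rab5a, Rab5b, Rab5c, Rab6a, Rab7, Rab8a, Rab9, Rab10, Rab11a, Rab11b, Rab14, Rab18, Rab21, Rab22a and Rab35). Of the Rab3 genes 3 were positive and 1 negative, with a median of means of 0.26. Of the ubiquitous genes 7 were positive, 7 negative and 4 did not pass, with a median of 0.01. Of all features 42.1% were positive and 33.9% negative. The negative Rab3 gene, Rab3a, is at the eighth place, as are 3 of the negative ubiquitous genes (Rab9, Rab11a and Rab18). With the array block Rab3a and Rab3c did not pass. The Rab3 average exceeded the ubiquitous average on all 31 arrays, by 0.33 ± 0.18 (SD over arrays), from 0.00112 in BXD19 to 0.65 in BXD8. It was 0.37 without the genes at the eighth place and 0.26 on the core arrays. On the core arrays the Rab3 average leaned on Rab3b, at 0.90, beside 0.26 for Rab3c, 0.23 for Rab3d and −0.64 for Rab3a. The ubiquitous average there was −0.07. The difference without Rab3b was not computed. All 31 arrays share these probes and the C57BL/6J reference, so they do not count as separate observations of it. Each gene has 1 probe, and no test of this difference was made because the lists were chosen with these data known. The mean pairwise core r was −0.0118 within Rab3, −0.00450 within the ubiquitous genes and −0.00482 between them.

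The genes that load, activate and read the Rab proteins were described from a list of 63, of which 43 were measured. A positive mean was found for 13, a negative one for 19, and 11 did not pass, against the 76.1% of all features that passed. With the array block 5 were positive and 8 negative, where 19.6% and 20.1% of features were. Rabggtb and Rabggta, the subunits of the transferase that attaches the lipid anchor of every Rab, had the highest means, 0.65 and 0.47. Unc13d, the Rab27 effector Munc13-4, had 0.30, and Rims2, an active-zone effector of Rab3, 0.26. Rims1 had 0.09 and Rph3a, rabphilin, 0.22. The lowest were Sytl2, a Rab27 effector, with −0.91, Rab3gap1, the catalytic subunit of the GTPase-activating protein for Rab3, with −0.81, Eea1 with −0.79 and Rab11fip2, an effector of Rab11, with −0.60. Eea1 is at the eighth place. Rab3gap1 had an SD of 1.05 and did not pass with the array block (limma adjusted p = 0.0581). Gdi2, a carrier that recycles Rab proteins from membranes, had a mean of 0.17. With the array block Rims2 (limma adjusted p = 0.0524), Rph3a (0.1151), Rims1 (0.2160) and Gdi2 (0.3052) did not pass either.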

How the data were processed

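Log ratios of 31 arrays (23040 spots, 1 strain each) were used as deposited. The authors' values were taken as log2. The submitters' processing notes name R 2.0.0 and limma without stating their use. Steps within an array were not given in the sources used here. Sorted columns differed by 0, so the deposited arrays were quantile normalised, which removes shifts of a whole array. Log base and direction were assumed from limma's habit and the channel order in the labels. Depth has no counterpart here; the number of arrays limits the precision.

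Symbols came from the platform annotation (16874 probes with 1 symbol). Probes of a gene were averaged, giving 21262 features, and each mean was tested against 0 with limma 3.58.1 in R 4.3.3 (lmFit, eBayes, two-sided, Benjamini-Hochberg adjustment over all features). The C57BL/6J RNA counts as 1 control sample, so its own spread is left out. Array sets were arrays with a score over 0.2 on the first or the second component. Core correlations used 100000 permutations and the smaller sets exact enumeration. Between the first 2 probes of 1048 other genes the median correlation was 0.03, a guide to how far 1 probe can be trusted. The means of those 2 probes, not matched for place, differed by a median of 0.34, more than the median size of a Rab mean, 0.28. Promoters came from RefSeq (GRCm38.p6). The script was tested on simulated data. The members, lists and named genes (all Rab genes, with detail for the Rab3 genes, the extreme means, SDs and pairs) were chosen with earlier results of these data known. The alternatives were array sets left out, the block, 1.2-fold, centring, a robust fit, and the eighth place left out.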

Additional observations from a re-analysis of the deposited data

How the results depend on the processing

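No Rab gene that passed changed sign under any alternative run. Rab5a, Rab11b, Rab14, Rab20, Rab33a and Rab34, which did not pass, changed sign under some. For genes that passed, several runs could not have changed a sign. The 1.2-fold test and the run without the eighth place kept the mean of each Rab gene tested. Centring took the same 0.01 from every array, less than the size of any mean that passed. Every run that left arrays out kept the core arrays, and none tested means on the first- or second-component arrays alone. The runs therefore do not show that signs hold in each set. Rab10 averaged −0.40 on the first-component and 0.51 on the core arrays, Rab7 −0.14 and 0.41, and Rab3a 0.04 and −0.64. The mean kept its sign in all 3 sets for 35 of 48 Rab genes, beside 57.9% of named genes. The count of Rab genes passing, 40, was 22 (8 positive) with the array block and 12 (3 positive, 9 negative) against 1.2-fold. Without the eighth place 30 of 37 passed and the negative count was 10, because 11 genes are removed by construction. Under the other settings the count stayed between 38 (without the second-component arrays) and 43 (robust fit), with 39 after centring, 42 without the first-component arrays and 40 on the core arrays. Among single genes 18 calls were lost with the block and 28 against 1.2-fold; on the core arrays 3 were lost (Rab1b, Rab4b and Rab22a) and 3 gained (Rab1a, Rab11b and Rab20). Among the regulators 28 of 38 passed without the eighth place. The mean pairwise correlation stayed between −0.00151 (Spearman) and 0.00656 (without the eighth place), and was 0.0145 on the second-component arrays alone. No paired analysis was possible because each strain has 1 array. Without dye swaps, intensities or a further probe per gene, effects of dye, spot and dim signal on a Rab gene cannot be told apart from the strain.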
